A study of Saccharomyces cerevisiae with 6 samples.

Results

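Insertions directed by Ino4 were examined across all 16 chromosomes of budding yeast. The members were every line of the Ino4 library, 15951 of the 203761 insertions in 6 libraries, and the 187810 insertions of the Eds1, Leu3, Rgt1, Sfp1 and Zap1 libraries, pooled, served as the comparison. Each library came from BY4741, a laboratory strain, with SIR4 deleted (sir4D). The cells carried a plasmid with the TF joined at its C terminus to Sir4, and a second plasmid with a barcoded, HIS3-marked Ty5 retrotransposon under the galactose-inducible GAL1/10 promoter. By their labels the libraries differ in the TF alone. Sir4 is a silencing protein that recruits Ty5, so that in this assay, transposon calling cards, Ty5 inserts near the places a TF occupies. Each library started from 1 clone, there was 1 library per TF, and no library without a TF was used here. Tests therefore compare the Ino4 library with the other libraries, not a condition with replicates, and intervals cover counting error only. A target shared with another TF of the pool is harder to see.

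Ino4 is a basic helix-loop-helix protein that binds DNA as a heterodimer with Ino2 and activates genes for the synthesis of membrane phospholipids. When inositol is plentiful the repressor Opi1 enters the nucleus and shuts this activation off. The genes they control make inositol, import inositol and choline, methylate phosphatidylethanolamine to phosphatidylcholine, and build phospholipids from choline and ethanolamine in the Kennedy pathway.

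The Ino4 library was the smallest of the 6. Eds1 held 30707 insertions, Leu3 75550, Rgt1 29776, Sfp1 35758 and Zap1 16019. The Ino4 insertions lay at 15694 distinct positions with a median of 34 sequencing reads each, and 12.3% of them rested on 1 read. Lines of the file ran through the chromosomes in 2 runs, with 10609 insertions in the first and 5342 in the second. Only 195 positions occurred in both. No source used here says what these runs are, so they were taken as a check within the file, not as replicates.

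By the p of the exact test the Ino4 library differed most from the others at CHO2, ITR1 and INO1, genes of phospholipid and inositol synthesis and uptake. Of 7270 windows of 1 kb with at least 5 insertions in the 6 libraries, 28 held a larger share of the Ino4 library (one-sided Fisher's exact test, Benjamini-Hochberg adjusted p under 0.05), which is 0.385% of the windows tested. Adjacent windows merged, these made 27 sites, 19 of them on VI to XVI and 8 on I to V. The 19 are 70.37% of the sites, beside 70.65% of the windows tested. The 28 windows held 645 Ino4 insertions, or 4.04% of the library, against 0.697% of the other libraries. Among the 28, the windows in ELG1 and between HIS5 and NUP159 reached the minimum of 5 insertions only through Ino4. In each of the 28 the Ino4 share was higher than in each of the 5 other libraries. The windows were chosen for a high Ino4 share against these libraries pooled, so this follows in part from the choice.

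Genes were then taken one by one through their upstream regions, the sequence reaching up to 700 bp ahead of a protein-coding gene and ending at its neighbour. On the 15 chromosomes where insertions and the gene table lined up, 3716 distinct regions had at least 5 insertions. Of these, 16 were raised in the Ino4 library, or 0.431% of the regions tested, and 12 of the 16 lie on VI to XVI, where 2567 were tested (69.08%). Ratios given here are the region's share of Ino4 insertions divided by its share of the pooled others. For log2 ratios 1 insertion was added to both counts. On that scale the median region stood at 0.86, not at 0, and 12.3% of regions reached 2. Part of this shift comes from the added insertion, since a region with 0 Ino4 and 5 other insertions has a log2 ratio of 0.97. With nothing added the median ratio was 1.18.

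**Figure D1:**
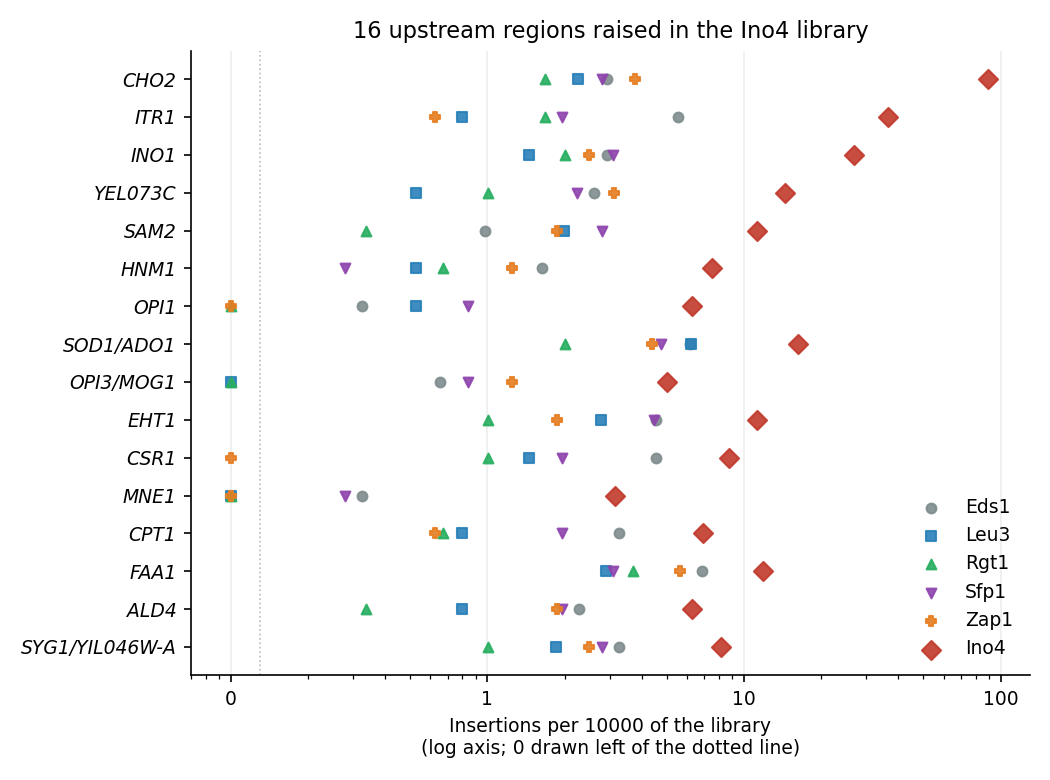
Insertions in each of the 16 raised upstream regions per 10000 insertions of the library, on a log axis, with 1 point for each of the 6 libraries and regions ordered by the p of the exact test. The Ino4 point lies to the right of all 5 others in every row, from 3.13 per 10000 at MNE1 to 89.0 at CHO2. The regions were chosen for a high Ino4 share, so this order is in part built in.

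The strongest region of all was that of CHO2, the gene of the enzyme that adds the first methyl group to phosphatidylethanolamine. It held 9 Eds1, 142 Ino4, 17 Leu3, 5 Rgt1, 10 Sfp1 and 6 Zap1 insertions. Ino4 thus put 89.0 of every 10000 insertions there and the other libraries 2.50, a ratio of 35.6 (95% interval 25.4 to 50.6, adjusted p = 2.785e-111, Fisher's exact test). The Ino4 insertions fell between 801915 and 802309 on chromosome VII, at 102 distinct positions, all between PTI1 and CHO2. They were shallow in reads, with a median of 8 against 34 in the whole library, and 17.6% rested on 1 read. Among insertions with at least 3 reads the region still held 105 of Ino4 against 25 of the others.

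OPI3 encodes the methyltransferase of the later methylation steps, and its region is shared with MOG1, a gene for a nuclear import protein. The 6 libraries held 2 Eds1, 8 Ino4, 0 Leu3, 0 Rgt1, 3 Sfp1 and 2 Zap1 insertions, a ratio of 13.5 (95% interval 4.26 to 43.6, adjusted p = 0.00226, Fisher's exact test). The 1-kb window that begins at 573001 on chromosome X held more, 26 Ino4 against 29 other insertions (ratio 10.6, adjusted p = 1.133e-11, exact test). Of these 26 insertions 20 lie inside MOG1 by the gene annotation and 6 between the genes. Of the 26, 22 lie within 60 bp of a gene end. Positions and table differed by up to 60 bp elsewhere, on chromosome XV, and by 10 bp in the segment that holds this site. The place of these insertions inside or outside MOG1 is therefore uncertain.

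The remaining genes of this branch were not raised. PSD1, for the mitochondrial phosphatidylserine decarboxylase, held 3 Eds1, 6 Ino4, 1 Leu3, 0 Rgt1, 6 Sfp1 and 2 Zap1 insertions (log2 ratio 2.66, adjusted p = 0.156, exact test). It passed the threshold with insertions of at least 3 reads, with the second run, or with gene starts moved by 100 bp down the chromosome. CHO1, for phosphatidylserine synthase, held 1 Ino4 insertion against 4 others. CDS1, for the enzyme that makes CDP-diacylglycerol, held 3 against 9 in the region shared with RKM3. PSD2, the second decarboxylase gene, held 2 against 17 in the region shared with LSO2. These counts are too small to show a moderate difference, as the interval of the CHO1 ratio, 0.0598 to 29.7, makes plain.

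Inositol genes followed CHO2 in rank. ITR1, which encodes the main inositol transporter, held 17 Eds1, 58 Ino4, 6 Leu3, 5 Rgt1, 7 Sfp1 and 1 Zap1 insertions. Its ratio was 19.0 (95% interval 12.3 to 29.6, adjusted p = 8.085e-37, Fisher's exact test), and Eds1, with 5.54 per 10000, came next after Ino4 with 36.4. The Ino4 insertions lay between 1445518 and 1445829 on chromosome IV and were deep, with a median of 338.5 reads. INO1, for inositol-3-phosphate synthase, the first enzyme of inositol synthesis, held 9 Eds1, 43 Ino4, 11 Leu3, 6 Rgt1, 11 Sfp1 and 4 Zap1 insertions (ratio 12.4, 95% interval 7.86 to 19.4, adjusted p = 1.997e-22, exact test). They fell between 135939 and 136318 on chromosome X with a median of 339 reads. The other 5 libraries lay together at INO1, between 1.46 and 3.08 per 10000, and Ino4 stood apart at 26.96.

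Further inositol genes did not pass the test. ITR2, the gene of the minor inositol transporter, held 2 Ino4 insertions against 13 others, and GIT1, for a glycerophosphoinositol transporter, 6 against 22 (ratio 3.21, 95% interval 1.07 to 8.17, adjusted p = 0.351, exact test). PIS1, for phosphatidylinositol synthase, held 1 against 4 in the region shared with MRD1. The inositol monophosphatase genes INM1 and INM2 held 1 against 10 and 0 against 5, INM2 in the region shared with MGP12. A count of 0 allows up to 1.88 per 10000 of the Ino4 library.

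In the Kennedy pathway 2 of 7 regions were raised, beside 0.431% of all regions. HNM1, the choline transporter gene, held 5 Eds1, 12 Ino4, 4 Leu3, 2 Rgt1, 1 Sfp1 and 2 Zap1 insertions (ratio 10.1, 95% interval 4.26 to 23.5, adjusted p = 1.109e-04, Fisher's exact test). CPT1, for cholinephosphotransferase, which completes phosphatidylcholine, held 10 Eds1, 11 Ino4, 6 Leu3, 2 Rgt1, 7 Sfp1 and 1 Zap1 (ratio 4.98, 95% interval 2.22 to 10.4, adjusted p = 0.0242, exact test). The Eds1 share at CPT1, 3.26 per 10000, was nearest to the 6.90 of Ino4. CPT1 passed in 12 of 20 other settings, and missed the threshold in each run alone.

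The other genes of the pathway did not pass. CKI1, for choline kinase, in the region it shares with USB1, held 5 Ino4 insertions against 7 others (log2 ratio 3.14, adjusted p = 0.155, exact test). EKI1, for ethanolamine kinase, held 9 against 43. PCT1, for the enzyme that follows choline kinase, held 12 against 77 in the region shared with YCH1. ECT1, whose product does for ethanolamine what that of PCT1 does for choline, held 0 against 5. EPT1, a second phosphotransferase gene, held 4 against 17. A test of the raised against the other members was not made.

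Of the regulators, only the repressor gene OPI1 passed. It held 1 Eds1, 10 Ino4, 4 Leu3, 0 Rgt1, 3 Sfp1 and 0 Zap1 insertions, a ratio of 14.7 (95% interval 5.23 to 42.9, adjusted p = 1.111e-04, Fisher's exact test). The 10 insertions spanned 67578 to 67711 on chromosome VIII with a median of 254.5 reads. Of the 11 Ino4 insertions in the 1-kb window there, 7 lay within 60 bp of a gene end. OPI1 passed in 16 of 19 other settings. It missed with insertions within 5 bp merged, in the second run alone, and with gene starts moved by 100 bp down the chromosome. INO4 itself, in the region it shares with YOL107W, held 3 Eds1, 6 Ino4, 4 Leu3, 4 Rgt1, 4 Sfp1 and 2 Zap1 insertions (log2 ratio 2.19, adjusted p = 0.245, exact test). INO2, for the partner of Ino4, held 12 Eds1, 19 Ino4, 150 Leu3, 8 Rgt1, 10 Sfp1 and 11 Zap1. The Leu3 library alone gave 150 of the 191 other insertions at INO2, so that its log2 ratio was only 0.29. Without Leu3 in the pool INO2 passed, with an adjusted p of 0.0227.

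Over the 4 lists of regulator, inositol, methylation and Kennedy pathway genes, all 23 regions were tested and 7 were raised, beside 0.431% of all regions. The median log2 ratio was 2.24, against 0.86 for all regions, and 13 of the 23 had an unadjusted p under 0.05, against 343 of 3716. With nothing added the median ratios were 3.21 and 1.18. With Ino4 set to 3 insertions wherever it was 0, the upper limit for such a count, they were 4.16 and 1.96. This setting changed 2 of the 23 regions and 894 of the 3716. It can only raise a median, so it is not a cautious check. The genes were chosen as known targets of this pathway, with earlier results of these data known, and no test of the lists was made.

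**Figure D2:**
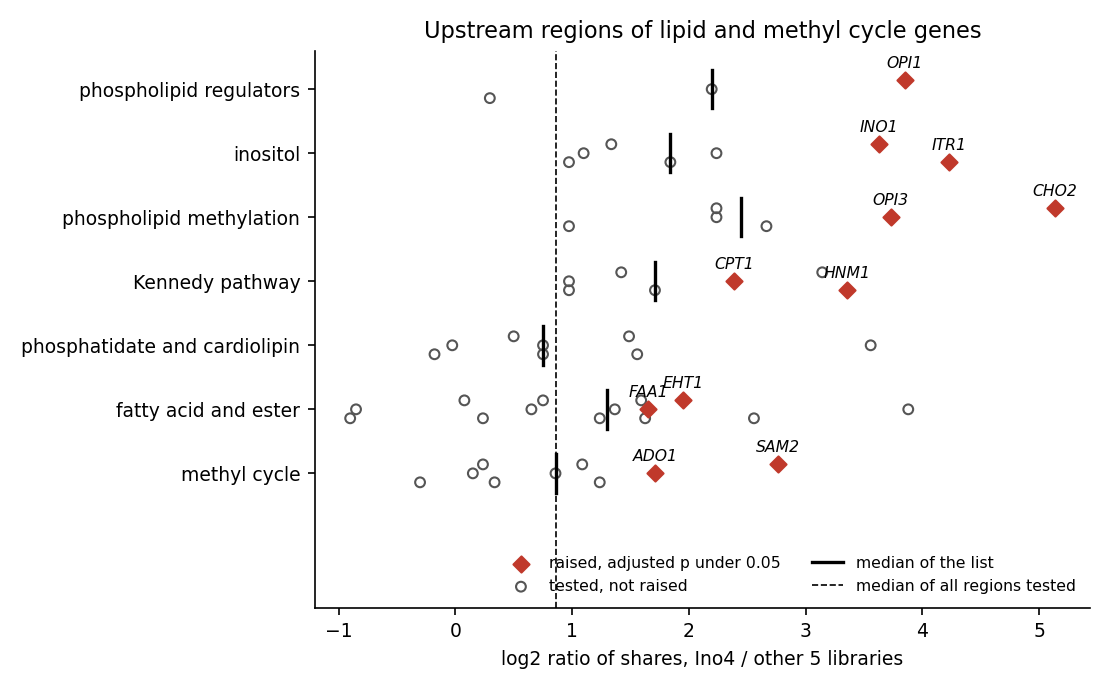
Log2 ratio of the Ino4 share to that of the other 5 libraries for each upstream region of 7 gene lists (horizontal axis), with raised regions as filled diamonds, other tested regions as open circles, and medians of the lists as bars. The lists of methylation genes, with a median of 2.45, and regulators, with 2.19, lie furthest from the dashed median of all regions at 0.86, and the phosphatidate and cardiolipin list, with 0.75, does not exceed it.

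Further lipid genes were raised outside these lists. FAA1, for a long-chain acyl-CoA synthetase, held 21 Eds1, 19 Ino4, 22 Leu3, 11 Rgt1, 11 Sfp1 and 9 Zap1 insertions (ratio 3.02, 95% interval 1.72 to 5.06, adjusted p = 0.0251, Fisher's exact test). EHT1, for an enzyme that joins acyl groups to ethanol, held 14 Eds1, 18 Ino4, 21 Leu3, 3 Rgt1, 16 Sfp1 and 3 Zap1 (ratio 3.72, adjusted p = 0.00528, exact test). Both are places that all 6 libraries hit, with Ino4 in modest excess. They were the 2 raised members of 14 tested in the list of fatty acid and ester genes, whose median log2 ratio was 1.30. Among all regions 0.431% were raised. CSR1, for a phosphatidylinositol transfer protein, held 14 Eds1, 14 Ino4, 11 Leu3, 3 Rgt1, 7 Sfp1 and 0 Zap1 (ratio 4.71, adjusted p = 0.00528, exact test).

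Fatty acid synthase genes showed up partly through windows. On chromosome XI gene positions lined up only over the first of 4 segments, and no upstream region was tested there. The window from 99001 to 100000, inside that first segment, held 20 Eds1, 30 Ino4, 22 Leu3, 5 Rgt1, 20 Sfp1 and 5 Zap1 insertions (ratio 4.91, 95% interval 3.09 to 7.61, adjusted p = 1.6e-07, Fisher's exact test). Of its 30 Ino4 insertions 29 lay between LOT5 and FAS1, the gene of the beta subunit of fatty acid synthase. FAS2, for the alpha subunit, held 2 Eds1, 8 Ino4, 5 Leu3, 2 Rgt1, 1 Sfp1 and 7 Zap1, and missed the threshold (ratio 5.54, adjusted p = 0.0799, exact test). A window on chromosome XIV from 662001 held 21 Eds1, 30 Ino4, 49 Leu3, 8 Rgt1, 29 Sfp1 and 6 Zap1 (ratio 3.13, adjusted p = 4.339e-04, exact test), all 30 between ACC1 and TIM23. ACC1 encodes acetyl-CoA carboxylase, which begins fatty acid synthesis, and TIM23 a channel of mitochondrial protein import. None of the 30 lay in the region reaching 700 bp ahead of ACC1, where Ino4 had 0 insertions and the others 9. The region of TIM23 held 12 Ino4 and 73 other insertions.

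The list of phosphatidate and cardiolipin genes had 0 raised of 8 tested, beside 0.431% of all regions. In this list 1 gene had an unadjusted p under 0.05, against 343 of 3716 over all regions (Fisher's exact test). That gene, PGS1, for the first enzyme of cardiolipin synthesis, held 3 Ino4 insertions and 3 others (ratio 11.8, 95% interval 1.58 to 87.9). Counts in this list ran from 0 to 4 Ino4 insertions.

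Of 9 regions of genes of the methyl cycle, which supplies and recycles the methyl donor of phosphatidylcholine synthesis, 2 were raised. The share raised over all regions was 0.431%. SAM2, for an S-adenosylmethionine synthetase, held 3 Eds1, 18 Ino4, 15 Leu3, 1 Rgt1, 10 Sfp1 and 3 Zap1 insertions (ratio 6.62, 95% interval 3.50 to 12.2, adjusted p = 1.394e-05, Fisher's exact test). ADO1, for adenosine kinase, shares its region with SOD1, the gene of copper-zinc superoxide dismutase. The region held 19 Eds1, 26 Ino4, 47 Leu3, 6 Rgt1, 17 Sfp1 and 7 Zap1 (ratio 3.19, 95% interval 1.98 to 4.96, adjusted p = 0.00111, exact test), and the files cannot assign it to either gene. SAM1, the paralog of SAM2, held 5 Ino4 insertions against 55 others in the region shared with YLR179C. The 9 regions of this list had a median log2 ratio of 0.86, the same as all regions.

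Other raised regions belong to genes of varied or unknown role. YEL073C, an uncharacterized gene near the left end of chromosome V, ranked next after INO1, with 8 Eds1, 23 Ino4, 4 Leu3, 3 Rgt1, 8 Sfp1 and 5 Zap1 insertions (ratio 9.67, 95% interval 5.32 to 17.4, adjusted p = 7.327e-10, Fisher's exact test). MNE1, for a mitochondrial protein, rested on 1 Eds1, 5 Ino4, 0 Leu3, 0 Rgt1, 1 Sfp1 and 0 Zap1 insertions, and its interval ran from 4.82 to 309. The MNE1 region reached the minimum of 5 insertions only through Ino4. ALD4, for a mitochondrial aldehyde dehydrogenase, held 7 Eds1, 10 Ino4, 6 Leu3, 1 Rgt1, 7 Sfp1 and 3 Zap1 (adjusted p = 0.0484, exact test). The region of SYG1 and YIL046W-A held 10 Eds1, 13 Ino4, 14 Leu3, 3 Rgt1, 10 Sfp1 and 4 Zap1 (adjusted p = 0.0497, exact test).

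ALD4, SYG1 and FAA1 were the regions just inside the threshold, and ALD4 and SYG1 passed in only 8 and 9 of 20 other settings. Just outside lay the region of FAR8 and RSF1, with 6 Ino4 insertions against 7 others (adjusted p = 0.0532, Fisher's exact test), FSH1 with 7 against 11 (adjusted p = 0.0544, exact test), and FMP30 with 5 against 4 (adjusted p = 0.0553, exact test). In adjusted p these lie close to ALD4 and SYG1. Their ratios of 10.1, 7.49 and 14.7 are higher than the 4.91 of ALD4, 3.73 of SYG1 and 3.02 of FAA1, but rest on fewer Ino4 insertions. FMP30, with 4 insertions of the others, reached the minimum of 5 only through Ino4. Without the Leu3 library in the pool SYG1, CPT1, FAA1, MNE1 and ALD4 missed the threshold, with adjusted p from 0.115 to 0.170 (exact test), and without the Rgt1 library SYG1, CPT1 and ALD4, with 0.0515 to 0.0982. The remaining 11 raised regions passed without any of the 5 other libraries in turn.

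**Figure D3:**
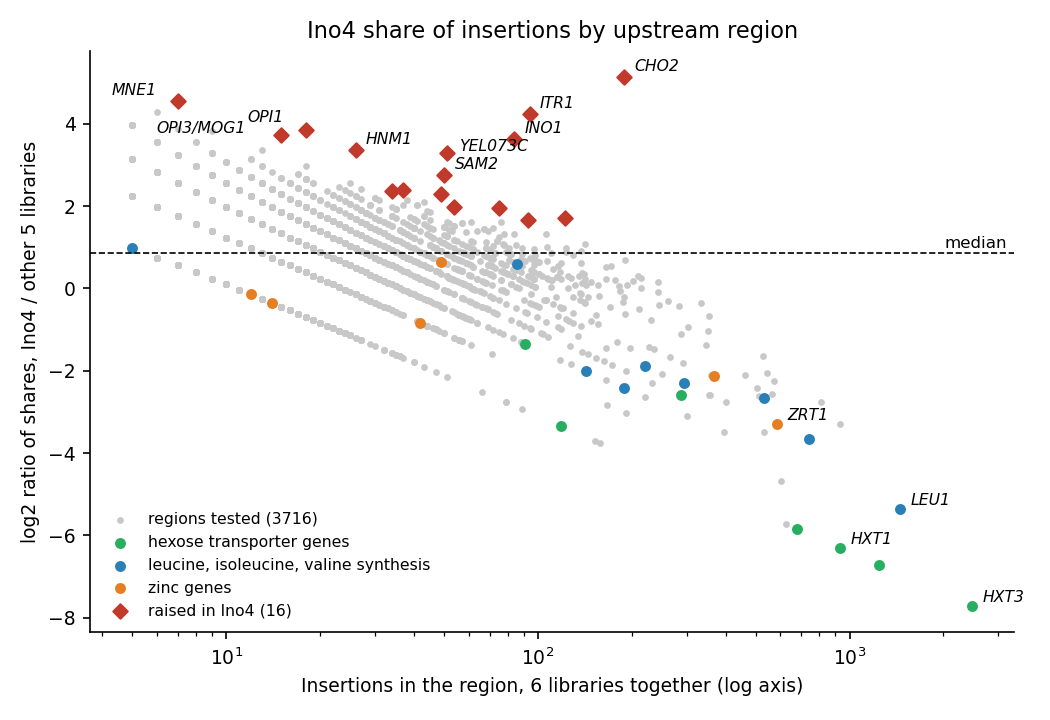
Log2 ratio of the Ino4 share to that of the other 5 libraries (vertical axis) against the insertions in the 6 libraries together (log axis) for 3716 upstream regions, with the 16 raised regions as diamonds and 3 lists of genes tied to other TFs in colour. CHO2, ITR1 and INO1 combine high ratios with many insertions, and hexose transporter and leucine genes reach ratios down to -7.72 at HXT3.

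Windows and regions did not always name the same places. Of the 16 raised regions 11 overlapped a raised site, and CSR1, MNE1, CPT1, FAA1 and ALD4 did not. Conversely 16 of the 27 sites held no raised region. Of these, 3 lie on chromosome XI, where no region was tested and none could be raised. Between SPR3 and ERG25, a sterol synthesis gene, a window on chromosome VII held 26 Ino4 insertions against 107 others (ratio 2.86, adjusted p = 0.00647, Fisher's exact test), but the region ahead of ERG25 only 5 against 44. Near VHT1, the biotin transporter gene, a window held 16 against 58 (ratio 3.25, adjusted p = 0.0457, exact test). The region of VHT1 held similar counts, 15 against 61, on the other side of the threshold (adjusted p = 0.1125, exact test). The window of FAR8 and RSF1, with 6 of its Ino4 insertions between the genes and 1 in RSF1, held 7 against 7 (ratio 11.8, adjusted p = 0.0161, exact test). Their region held 6 against 7.

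A few sites lay inside genes or away from any gene start. The window from 1011001 on chromosome IV, over YDR274C, an open reading frame of unknown function, held 43 Eds1, 43 Ino4, 93 Leu3, 53 Rgt1, 41 Sfp1 and 21 Zap1 insertions, with 31 of the 43 Ino4 insertions inside the gene (ratio 2.02, adjusted p = 0.0237, Fisher's exact test). All 10 Ino4 insertions of a window on chromosome XVI lay in LGE1 (ratio 5.61), and 16 of 19 in one on chromosome V lay in MTC7 (ratio 2.87). Windows in ELG1 and between HIS5 and NUP159 were each raised on 4 Ino4 insertions against 1 other, with intervals from 4.66 to 2319. Both entered the test only through their Ino4 insertions, so their calls are no evidence of an excess. The ELG1 window passed in 3 of 11 other settings and that between HIS5 and NUP159 in 2 of 10. The first window of chromosome III held 4 Eds1, 9 Ino4, 8 Leu3, 1 Rgt1, 3 Sfp1 and 2 Zap1 (ratio 5.89, adjusted p = 0.0457, exact test). Near CDC9 and ENT1 on chromosome IV the counts were 7 against 10, near CDC45 and LCL2 on chromosome XII again 7 against 10, and near NGL3 and NAB6 on chromosome XIII 6 against 5. The windows of chromosome XI from 566001, with 9 against 16, and from 608001, with 12 against 25, are given without gene names. Many of these calls lay close to the threshold, and 13 of the 28 windows missed the threshold without 1 of the other libraries. They were the windows in ELG1 and LGE1, at VHT1, YDR274C, MTC7 and SYG1, between HIS5 and NUP159, at FAR8 and RSF1, near CDC9 and CDC45, on chromosome XI from 566001 and 608001, and at the end of chromosome III, with adjusted p from 0.0501 to 0.180 (exact test). Their log2 ratios changed by -0.74 to 0.05 when the library was left out.

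Around the strongest sites insertions were counted by distance from the median Ino4 position. The sites were chosen for their Ino4 excess, so a peak of Ino4 at the centre was built in. Within 250 bp of the centre of the CHO2 site Ino4 had 142 insertions against 43 of the others (ratio 38.9). From 250 to 500 bp it had 0 against 9, with a ratio interval of 0 to 5.965. At ITR1 the counts were 58 against 37 within 250 bp, at INO1 46 against 52, at OPI3 and MOG1 27 against 23, and at YEL073C 23 against 27. From 250 to 500 bp they were 0 against 1, 3 against 14, 0 against 3 and 0 against 2, in the same order. The upper limits of these ratios were 459, 9.04, 28.5 and 62.7. Bins with so few insertions cannot show whether the Ino4 excess ends there. At all 5 sites the other libraries also had fewer insertions from 250 to 500 bp than within 250 bp. Of the 25 outer distance bins, which reached to 10 kb from the 5 sites, 1 passed the threshold, at 5 to 10 kb from ITR1 (22 against 93, ratio 2.79, adjusted p = 3.928e-04, two-sided Fisher's exact test). That stretch holds the SAM2 site.

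**Figure D4:**
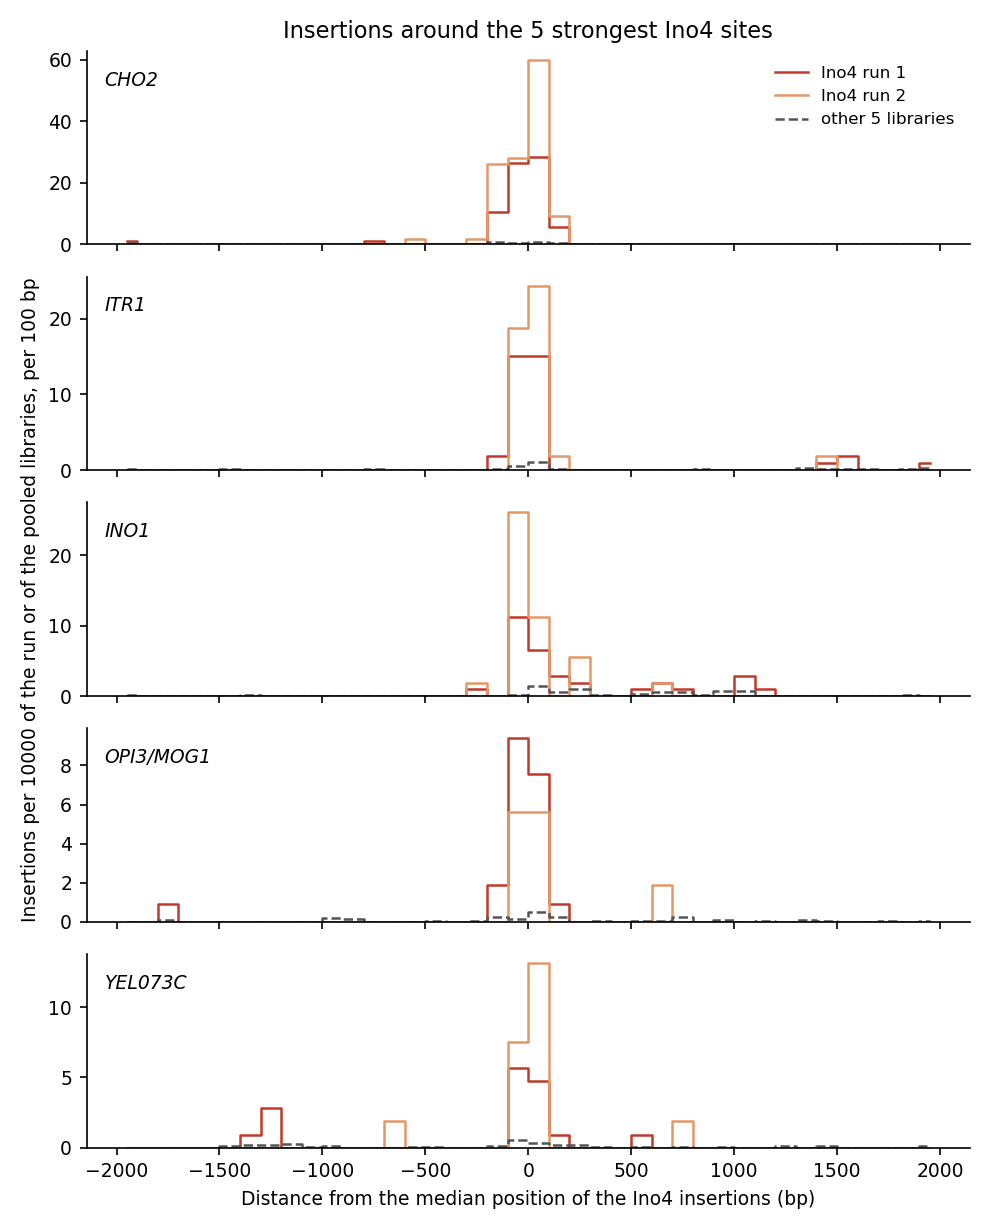
Insertions per 10000 in bins of 100 bp (vertical axes) against the distance from the median Ino4 position (horizontal axis, bp) at the 5 strongest sites, for the 2 runs of the Ino4 file and the other 5 libraries pooled. In each panel both Ino4 runs peak within 250 bp of the centre, which was set by the Ino4 insertions themselves. The pooled libraries reach at most 1.38 per 10000, at INO1.

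The raised places were chosen on both runs of the Ino4 file together, so their values in each run are a description, not a separate test. All 16 raised regions had a higher share than the pooled others in each run, as did 27 of the 28 windows, and 12 regions and 20 windows had an unadjusted p under 0.05 in each run (Fisher's exact test). The exception among the windows was that in ELG1, with 4 insertions in the first run and 0 in the second. ITR1 had 34 insertions in the first run and 24 in the second, or 32.0 and 44.9 per 10000 of the run. INO1 had 22 and 21, YEL073C 12 and 11, SAM2 14 and 4, OPI1 7 and 3, and HNM1 10 and 2. CHO2 had 75 and 67, which is 70.7 and 125 per 10000, and it was the only region whose share differed between the runs (adjusted p = 0.0167 over the 19 regions raised or just outside, exact test). At FAA1 16 of 19 insertions and at OPI3 with MOG1 7 of 8 came from the first run, and neither passed an unadjusted p of 0.05 in the second.

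The excess depended on how closely spaced insertions are counted. With each position counted once per library, CHO2 kept 102 Ino4 insertions against 46 others (ratio 22.5) and 11 of the 16 regions were raised. With insertions within 5 bp of the one before counted once, CHO2 had 16 against 38 (ratio 3.61, 95% interval 1.88 to 6.64), ITR1 8 against 24 (ratio 2.86) and INO1 13 against 24 (ratio 4.65). Then 0 regions were raised by Fisher's exact test, with 105 at an unadjusted p under 0.05 and a smallest adjusted p of 0.154. This merging caps what a narrow stretch can hold. Whether closely spaced insertions are separate events was not tested.

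In 65 of the 7270 windows, 0.894%, the Ino4 library held a smaller share than the others. The library with the highest share was Leu3 in 36 of them, Rgt1 in 27 and Zap1 in 2. They held 2.09% of Ino4 insertions and 22.4% of those of the other libraries. The window from 293001 on chromosome VIII held 356 Eds1, 1 Ino4, 9 Leu3, 2933 Rgt1, 13 Sfp1 and 3 Zap1 insertions, and that from 24001 on chromosome IX 2 Eds1, 0 Ino4, 2343 Leu3, 0 Rgt1, 1 Sfp1 and 1 Zap1.

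Genes tied to those TFs are listed beside these windows. The libraries of those TFs are part of the pool, so lowered shares at such genes follow from the pool. At HXT3, for example, Rgt1 gave 2150 of the 2477 other insertions. Whether Ino4 avoids these genes was not tested. Of 7 hexose transporter regions 0 were raised and 6 were lowered, with 1.26% of all regions lowered (one-sided Fisher's exact test), and 0 of the 7 had an unadjusted p under 0.05 for a higher share. HXT3 held 322 Eds1, 0 Ino4, 4 Leu3, 2150 Rgt1, 1 Sfp1 and 0 Zap1 insertions, a count that allows up to 1.88 per 10000 for Ino4. Of 9 regions of leucine, isoleucine and valine synthesis 6 were lowered, among them LEU1 with 2 Ino4 against 1430 Leu3 insertions. Of 6 zinc regions 2 were lowered, ZRT1 and ZRT2, with 4 and 6 Ino4 insertions against 543 and 316 of Zap1.

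Chromosomes VI to XVI together held 70.9% of the Ino4 insertions and 69.6% of the others. By single chromosome the shares differed on 12 of 16 chromosomes (two-sided Fisher's exact test, adjusted p under 0.05). The ratio was highest on chromosome X, at 1.39, with 957 Ino4 insertions against 8106. On X, Ino4 had 6.0%, near Sfp1 with 5.63%, Eds1 with 5.28% and Zap1 with 5.11%, while Leu3 had 4.10% and Rgt1 1.86%. Chromosome VI held 1.80% and 3.46% (ratio 0.520). On VI, Leu3 had 6.06% and the remaining 4 between 1.16% and 2.12%. On VIII, where the Ino4 ratio was 0.658, Rgt1 had 19.2% and the others between 2.94% and 5.17%.

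The 29 genes that the study names as Ino4 targets lie in 24 distinct regions, of which 13 were raised, beside 0.431% of all regions. They were chosen in part on these same insertions, so this is not independent evidence. Among those not raised were AHP1, where Rgt1 and Eds1 gave 109 and 66 insertions against 17 of Ino4, MET13, where Leu3 gave 191 against 20, and KNH1, with 18 Ino4 insertions against 153 others.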

How the data were processed

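The deposited files hold 1 insertion per line, with chromosome, position and the count of reads behind it, which the authors obtained by inverse PCR next to Ty5 insertions, sequencing and alignment, without normalization. Per the labels the aligner was Novoalign; its version and the genome build are not given in the sources used here. Each line counted as 1 insertion whatever its reads. PCR reads carry no molecular identifiers. With 1 library per TF, intervals cover counting error only. Fisher's exact test in scipy 1.17.1 set each Ino4 count against the pooled count of the remaining libraries, with p-values adjusted by Benjamini-Hochberg over all windows or regions with at least 5 insertions. That minimum counts Ino4 insertions too, so a window or region can enter the test through them. Intervals of ratios are exact 95% intervals of the binomial split.

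Genes and their spacing came from the RefSeq table of assembly R64, and no coordinate of it is printed. Insertions and gene bodies were compared in 73 segments, by the shift that left the smallest share of insertion positions inside genes. Gene starts were not checked on their own. By this measure 70 segments lined up within 100 bp, with shifts of up to 60 bp. The last 3 of chromosome XI did not, so no region of XI was tested. DGK1, LEU2 and ILV6 had under 5 insertions, GPT2, FAS1 and ZRT3 lie on XI, and FAA2 had no region of its own. Named are all raised sites, the raised regions, the 3 regions on each side of the threshold, every member of the 4 phospholipid lists and raised members of the others. Other genes named were chosen after their values were seen. Members and lists were chosen with earlier results of these data known. The test was tried on simulated data. Alternatives changed the counting of insertions, the pool, the run, totals, filters, windows and region limits.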

Additional observations from a re-analysis of the deposited data

How the results depend on the processing

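The 28 raised windows became 14 with each position counted once, 0 with insertions within 5 bp merged (205 at an unadjusted p under 0.05, Fisher's exact test), 18 and 11 in the first and second run (15 and 8 of them among the 28), 10 with totals only from windows raised in no library, 47 with a two-sided test and 15 at an adjusted p under 0.01. The 16 raised regions became 0 with the merging (105 at an unadjusted p under 0.05), 8 in the second run (4 of them among the 16: CHO2, ITR1, INO1 and YEL073C), 8 with the other totals (all among the 16), 25 with a two-sided test and 26 with gene starts moved by 100 bp up the chromosome (15 among the 16). The 7 raised phospholipid genes became 0 with the merging. In the second run 4 were raised, CHO2, ITR1 and INO1 of the 7, and PSD1. Among settings chosen after seeing the data, the 65 lowered windows became 0 with the merging, 34 without the Leu3 library and 27 in the second run, and the 12 chromosomes became 7 with each position counted once and 1 with the merging. CHO2, ITR1, INO1 and YEL073C passed in 19 of 20 settings, all but the merging. Leaving out 1 other library at a time gave from 13 to 23 raised regions and 6 or 7 raised phospholipid genes. In the second run fewer insertions were available, and the merging removes closely spaced insertions by construction; the causes of the other changes were not tested. Of the values of single windows, regions and genes under these settings 826 kept their side of the threshold, 207 lost the call and 4 gained it. The 826 include values of phospholipid regions that were not raised and had no call to lose. Settings in which a window or region fell under the minimum of insertions are not counted. No call turned direction. The log2 ratio of INO2, which was not raised, ran from -0.13 to 1.75. No paired analysis was possible because each TF has 1 library.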

Other observations

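Reads per insertion differed among the raised regions. The Ino4 insertions of CHO2 took 89.0 per 10000 insertions of the library but only 0.13% of its reads, with medians of 7 and 9 reads in the first and second run. SAM2 had medians of 10 and 15.5. The 58 insertions of ITR1 carried 1.07% of the reads, with medians of 289 and 681.5, and the 43 of INO1 carried 0.891%, with medians of 337 and 379. These values were compared after they were seen and have no test.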
